A study of Mus musculus with 8 samples.

Results

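The genes described here are 38 members of 2 related programmes, glycolysis and the response to low oxygen, among the 22075 genes of a deposited expression table. They were chosen by name: 22 encode glucose carriers, glycolytic enzymes and lactate carriers, and 16 are oxygen sensing genes or known targets of hypoxia-inducible factors (HIFs). All 38 symbols were found, on 39 rows, since Aldoa has a second row. The table holds RNA-seq of mouse lung group 2 innate lymphoid cells (ILC2s), tissue-resident lymphocytes that secrete type 2 cytokines, from C57BL/6 mice after a short exposure to papain, an allergen. The wild type (WT) group carried Stat3 fl/fl without Cre, so its Stat3 gene was floxed but intact. The STAT3-KO group carried Stat3 fl/fl with Vav-iCre, a recombinase active in blood cells at large. Loss of STAT3 and the presence of Vav-iCre therefore cannot be told apart. Cells of all groups were expanded with interleukin-2 (IL-2, 10 ng/ml, about 5 days), and the IL-33 groups then had IL-33 (10 ng/ml) for 2 days. The labels do not describe the medium of the control cells over those days. Each of the 4 groups (WT control, STAT3-KO control, WT IL-33, STAT3-KO IL-33) had 2 libraries. Nothing in the labels says that these came from separate mice or cultures, so the p-values measure the spread between libraries, which may be technical.

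Glycolysis splits glucose into pyruvate in the cytosol, and lactate dehydrogenase and lactate carriers dispose of the pyruvate that does not enter mitochondria. HIF-1, made of the alpha subunit Hif1a and its partner Arnt, is a transcription factor whose alpha subunit is hydroxylated by the prolyl hydroxylases Egln1 to Egln3 and degraded when oxygen is present. It switches on most glycolysis genes, Pdk1, which keeps pyruvate out of the citric acid cycle, and feedback genes such as Egln3. IL-33 is an alarm cytokine that activates ILC2s through the receptor ST2, and STAT3 is a transcription factor activated by cytokine receptors.

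HIFs bind a short core that reads ACGTG or GCGTG, so the stretch just before the transcription start was read from RefSeq's promoter table (assembly GRCm38.p6), which held 35 of the 38 genes and had no entry for Bnip3l, Ndrg1 and Slc2a3. The 250 bases upstream of the start are printed for 6 genes on which the results turn: Hif1a and Ero1l, whose responses to IL-33 had opposite signs in the 2 genotypes, Ldha and Slc16a3, whose rise was smaller in STAT3-KO cells, and Pfkp and P4ha2, whose response was larger there. They lie at Hif1a chr12:73907617-73907866 (plus strand), Ero1l chr14:45318573-45318822 (minus strand), Ldha chr7:46845554-46845803 (plus strand), Slc16a3 chr11:120948817-120949066 (plus strand), Pfkp chr13:6648772-6649021 (minus strand) and P4ha2 chr11:54100674-54100923 (plus strand). Each is written 5′ to 3′ on the strand of its gene, and capitals mark ACGTG or GCGTG on either strand, which read CACGT or CACGC when the core is on the other strand. A CACGTG holds ACGTG on both strands.
Hif1a: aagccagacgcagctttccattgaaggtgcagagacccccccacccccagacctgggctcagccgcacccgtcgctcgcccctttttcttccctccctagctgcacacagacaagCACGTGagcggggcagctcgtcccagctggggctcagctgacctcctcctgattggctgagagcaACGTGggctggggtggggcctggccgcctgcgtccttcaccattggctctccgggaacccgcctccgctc
Ero1l: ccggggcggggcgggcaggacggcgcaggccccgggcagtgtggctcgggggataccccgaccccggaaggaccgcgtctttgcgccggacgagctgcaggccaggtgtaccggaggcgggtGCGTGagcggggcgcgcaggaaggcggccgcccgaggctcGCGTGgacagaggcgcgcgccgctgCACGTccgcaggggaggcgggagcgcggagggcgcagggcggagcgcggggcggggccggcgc
Ldha: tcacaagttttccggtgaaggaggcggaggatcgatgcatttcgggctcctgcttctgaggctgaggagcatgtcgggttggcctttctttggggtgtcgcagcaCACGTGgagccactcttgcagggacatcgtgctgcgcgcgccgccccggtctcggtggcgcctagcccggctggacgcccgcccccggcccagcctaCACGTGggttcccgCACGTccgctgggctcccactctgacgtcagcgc
Slc16a3: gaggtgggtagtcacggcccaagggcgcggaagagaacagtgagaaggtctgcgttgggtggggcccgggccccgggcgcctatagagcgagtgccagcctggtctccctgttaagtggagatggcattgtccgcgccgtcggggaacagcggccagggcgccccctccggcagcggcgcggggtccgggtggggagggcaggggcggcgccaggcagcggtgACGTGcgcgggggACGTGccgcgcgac
Pfkp: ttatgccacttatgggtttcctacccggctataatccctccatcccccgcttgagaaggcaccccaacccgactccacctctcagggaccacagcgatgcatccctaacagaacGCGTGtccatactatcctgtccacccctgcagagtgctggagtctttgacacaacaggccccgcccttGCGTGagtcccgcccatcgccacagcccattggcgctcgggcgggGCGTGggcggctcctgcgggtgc
P4ha2: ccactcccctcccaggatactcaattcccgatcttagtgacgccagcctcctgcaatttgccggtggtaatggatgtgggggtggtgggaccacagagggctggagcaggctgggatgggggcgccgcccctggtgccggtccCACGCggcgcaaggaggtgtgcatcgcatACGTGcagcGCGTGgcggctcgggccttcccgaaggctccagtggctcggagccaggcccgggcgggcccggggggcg

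Ldha has 3 marked stretches, the first 2 of them CACGTG, while the marks of Pfkp are all GCGTG. In windows of 300 bases (250 before to 50 after a listed start), 33 of the 35 genes held ACGTG or GCGTG: 19 of 21 glycolysis genes and 14 of 14 HIF genes. Some genes have more than 1 listed start: there were 53 windows for the 35 genes and 32851 for all 27025 genes. A gene was counted if any of its windows held the letters, so genes with more windows had more chances to be counted. Each stretch printed above belongs to 1 listed start. Of all 27025 genes in the promoter table, 46.7% held 1 of these cores. ACGTG alone was present for 26 of the 35 members, against 21.8% of all genes. GCGTG was present for 25 of the 35, against 35.2% of all genes, and CACGTG, which contains ACGTG, for 6, against 8.09%. The member windows were richer in G and C, with a median of 63.3% against 52.7% over all windows. TTCNNNGAA, a palindrome read by STAT factors, was found for 3 of the 35 genes, against 9.55% of all genes. A match of letters is not a measured binding site, and binding was not tested.

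Values are FPKM, fragments scaled to gene length and to the mapped total of the library, so levels can be compared between genes. The steps in which low values move gave a depth of 15843685 to 19905817 reads per library, at which 3 reads in a gene of 1 kb equal 0.151 to 0.189 FPKM. Stat3 itself was at 41.7 and 50.7 FPKM in WT control, 15.3 and 15.996 in STAT3-KO control, 49.0 and 55.3 in WT IL-33 and 8.03 and 9.69 in STAT3-KO IL-33, so the genotype labels held in all 8 libraries. All 13 ILC2 markers had a row in the table, and their summed level was 3752 to 3884 FPKM in WT control, 3665 to 3692 in STAT3-KO control, 9839 to 10666 in WT IL-33 and 3193 to 3456 in STAT3-KO IL-33, with the cytokine gene Il5 highest. The 7 T cell markers summed to 4.65 to 9.64 FPKM over the 8 libraries. The 5 NK cell and ILC1 markers summed to 8.78 to 10.53 FPKM in WT control, 26.7 to 29.3 in STAT3-KO control, 2.51 to 2.61 in WT IL-33 and 4.44 to 4.98 in STAT3-KO IL-33. Red blood cell markers (3 of 5 with a row) went from 19.1 to 19.3 FPKM in WT control and 10.6 to 12.8 in STAT3-KO control to between 3.10 and 5.45 with IL-33. The ILC3, macrophage and monocyte, dendritic cell and granulocyte lists each summed to at most 7.28 FPKM in any library, and the epithelial and stromal list to 21.7 to 29.6. Of 5 mast cell and basophil markers 2 had a row and 3 (Fcer1a, Mcpt4 and Ms4a2) had none. Their sum, mainly Cpa3, was 299 to 326 FPKM in WT control, 111 to 140.4 in STAT3-KO control, 127 to 155 in WT IL-33 and 7.49 to 7.77 in STAT3-KO IL-33. These sums move with the groups, and their part in the results was not tested. In bulk RNA, fewer cells of a type and less RNA per cell cannot be told apart.

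A gene was tested where it reached 1 FPKM in at least 2 libraries, which held for 11877 genes, 22 of them glycolysis members and 15 of them HIF members. Tests were limma's moderated tests on log2(FPKM + 1), two-sided, with p-values adjusted over all 11877 genes (Benjamini-Hochberg), and "rose" or "fell" is written only for an adjusted p under 0.05. Differences are on the log2(FPKM + 1) scale, with the standard error (SE), which understates the change of low genes. The member left untested was Vegfa, the vascular growth factor. It was listed at 0 in 6 libraries and at 0.0586 and 0.0429 FPKM in 1 WT IL-33 and 1 STAT3-KO IL-33 library, which are 5 and 3 reads over its length. Egln3 and P4ha2 passed the filter only through 1 group, WT IL-33 and STAT3-KO IL-33 respectively, so their tests against that group are also given from a fit with no filter.

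Most of the glycolytic chain was higher with IL-33 in WT cells. Of the 22 glycolysis members, 16 rose and 1 fell, with a median difference of 0.89. Over all genes tested 36.1% were called, 14.5% higher and 21.6% lower, and the median difference was -0.14. Rescaling the libraries by the median of ratios moved that median to 0.00 and the split of all calls from 1724 higher and 2561 lower to 2313 higher and 1864 lower. With it 19 of the 22 members rose and 0 fell.

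**Figure D1:**
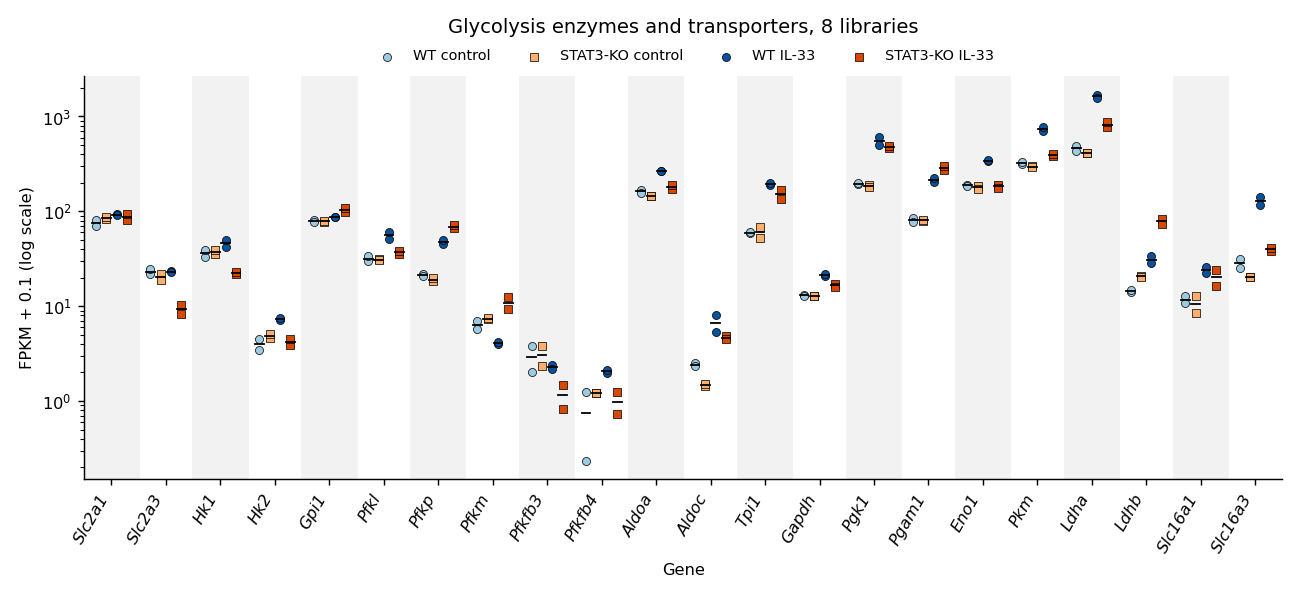
FPKM + 0.1 on a log axis for the 22 glycolysis members in pathway order. Points are the 8 libraries by group and bars are group means (n = 2). Ldha lies highest, at 1694 and 1585 FPKM in WT IL-33, and the STAT3-KO IL-33 points lie under the WT IL-33 points for Ldha and Pkm and over them for Pgam1 and Ldhb.

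Neither glucose carrier was called higher with IL-33, although Slc2a1 was in WT under median-of-ratios rescaling. Slc2a1, the main glucose carrier of activated lymphocytes, was at 81.6 and 69.9 FPKM in WT control, 83.0 and 87.6 in STAT3-KO control, 92.6 and 90.5 in WT IL-33 and 81.7 and 93.4 in STAT3-KO IL-33. The IL-33 difference was 0.27 (SE 0.11, adjusted p = 0.0936) in WT, 0.45 with the rescaling (SE 0.12, adjusted p = 0.0235), and 0.03 (SE 0.11, adjusted p = 0.822) in STAT3-KO. Slc2a3, a carrier of higher affinity, was at 21.8 and 24.4 FPKM in WT control, 21.5 and 19.01 in STAT3-KO control, 23.3 and 22.8 in WT IL-33 and 8.20 and 10.2 in STAT3-KO IL-33. Only the 2 STAT3-KO IL-33 libraries stood low: Slc2a3 fell there by 1.06 (SE 0.14, adjusted p = 0.000503), while its WT difference was 0.00 (SE 0.14, adjusted p = 0.992). Its share of the FPKM of the 2 carriers was 23.5% in WT control, 19.2% in STAT3-KO control, 20.1% in WT IL-33 and 9.49% in STAT3-KO IL-33.

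The hexokinases trap glucose in the cell as glucose 6-phosphate. Hk1, the form that made up 82.6% to 89.9% of hexokinase FPKM by group, was at 32.5 and 39.2 FPKM in WT control, 35.5 and 39.2 in STAT3-KO control, 42.3 and 50.05 in WT IL-33 and 21.6 and 22.9 in STAT3-KO IL-33. It fell with IL-33 in STAT3-KO cells by 0.72 (SE 0.14, adjusted p = 0.00288), and the WT difference of 0.36 did not pass (adjusted p = 0.0723), though it did under rescaling (0.53, adjusted p = 0.0155). Hk2, the inducible form and a HIF target, was low throughout, at 3.37 and 4.42 FPKM in WT control, 4.53 and 5.02 in STAT3-KO control, 7.01 and 7.38 in WT IL-33 and 3.77 and 4.39 in STAT3-KO IL-33. It rose in WT cells by 0.75 (SE 0.18, adjusted p = 0.0119) and was not called in STAT3-KO cells (-0.19, SE 0.18, adjusted p = 0.403). Both kinases thus ended lower in STAT3-KO than in WT cells under IL-33.

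Phosphofructokinase, the committing step of glycolysis, has 3 isoforms, and each took its own course. Pfkl, the liver type, rose in WT from 29.9 and 33.5 FPKM to 50.9 and 60.8 (0.79, SE 0.12, adjusted p = 0.00184). In STAT3-KO cells Pfkl was at 31.1 and 30.3 FPKM in control and 35.6 and 38.5 with IL-33, which was not called (0.26, adjusted p = 0.109) except under rescaling (0.48, adjusted p = 0.0116). Pfkp, the platelet type, rose in both genotypes, in WT from 21.6 and 20.7 to 45.2 and 49.3 FPKM (1.12, SE 0.11, adjusted p = 0.00015). In STAT3-KO cells Pfkp rose further, from 18.3 and 19.5 to 66.7 and 70.8 FPKM (1.81, SE 0.11, adjusted p = 7.16e-06). Pfkm, the muscle type, was at 5.70 and 6.92 FPKM in WT control, 7.16 and 7.42 in STAT3-KO control, 3.86 and 4.07 in WT IL-33 and 9.15 and 12.4 in STAT3-KO IL-33. It fell in WT (-0.55, SE 0.18, adjusted p = 0.044) and rose in STAT3-KO cells (0.49, SE 0.18, adjusted p = 0.0496), both close to the threshold. Pfkl made up 53.5% of the family's FPKM in WT control and 52.1% in WT IL-33, but 54.0% in STAT3-KO control and 31.8% in STAT3-KO IL-33, where Pfkp held 59.0%.

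A family of bifunctional enzymes sets the level of fructose 2,6-bisphosphate, the activator of phosphofructokinase. The 2 of them chosen here, Pfkfb3 and Pfkfb4, were among the lowest glycolysis members. Pfkfb3 held the largest share of the family's FPKM in WT control (55.5%), STAT3-KO control (60.9%) and WT IL-33 (39.05%). In STAT3-KO IL-33 the largest share was that of Pfkfb1, which is not among the 38 members. It held 44.7%, against 25.7% for Pfkfb3 and 21.6% for Pfkfb4. Pfkfb3 was at 1.91 and 3.68 FPKM in WT control, 3.71 and 2.27 in STAT3-KO control, 2.32 and 2.10 in WT IL-33 and 0.73 and 1.38 in STAT3-KO IL-33. It fell in STAT3-KO cells (-0.95, SE 0.30, adjusted p = 0.0268) and was not called in WT (-0.20, SE 0.30, adjusted p = 0.62). Pfkfb4 was at 0.134 FPKM in WT control 1 and 1.15 in WT control 2, and at 1.90 and 2.03 in WT IL-33. Its WT rise (0.92, SE 0.31, adjusted p = 0.0472) was not stable. The call was lost without any of 7 of the 8 libraries, and the difference was 0.46 without WT control 1. It was also lost with a pseudocount of 0.1, with no filter and with only the 2 groups compared.

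The aldolases, which split the sugar, and 2 enzymes after them, Tpi1 and Pgk1, rose in both genotypes. The Aldoa call in STAT3-KO cells was lost with no variance trend and without some single libraries. Aldoa, the main aldolase, rose in WT from 169 and 157 to 268 and 263 FPKM (0.70, SE 0.09, adjusted p = 0.000652) and in STAT3-KO cells from 145 and 143 to 172 and 187 (0.31, SE 0.09, adjusted p = 0.0194). Its second row, which overlaps the first, had at most 0.189 FPKM. Aldoc, a minor aldolase, Tpi1, triose phosphate isomerase, and Pgk1, which makes the first ATP of the pathway, also rose in both. Tpi1 went from 59.4 and 59.9 to 191 and 198 FPKM in WT (1.69, SE 0.15, adjusted p = 8.78e-05), and from 69.1 and 52.5 to 169 and 136 in STAT3-KO (1.32, SE 0.15, adjusted p = 0.000204). For Pgk1 the values were 194 and 198 against 607 and 503 FPKM in WT (1.49, SE 0.11, adjusted p = 2.86e-05) and 189.8 and 179 against 463 and 490.1 in STAT3-KO cells (1.36, SE 0.11, adjusted p = 2.72e-05). For Aldoc, Tpi1 and Pgk1 the difference between the 2 responses did not pass (0.05, adjusted p = 0.922; -0.37, adjusted p = 0.261; -0.12, adjusted p = 0.611).

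Gapdh, the dehydrogenase often used as a reference, is hard to read in this table. Its own row was at 12.7 to 13.1 FPKM in the 4 control libraries, 20.7 and 21.6 in WT IL-33 and 17.2 and 15.97 in STAT3-KO IL-33. Its transcript matches 77 other genes at 95% identity or more over at least 300 bases, 71 of them with a row, and these summed to 356 to 416 FPKM in the controls, 764 and 785 in WT IL-33 and 671 and 586 in STAT3-KO IL-33. One of them, Gm7336, alone was at 213 to 274 FPKM in the controls, 438 and 485 in WT IL-33 and 396 and 384 in STAT3-KO IL-33. The level of Gapdh is therefore uncertain, although both its row and its copies stood higher with IL-33 in each genotype. Of the 39 rows, 14 have such a match; those of Pfkp (the overlapping gene Pitrm1, at 52.1 in WT control 1), Bnip3l (Bnip3l-ps, 45.6) and Eno1 (Gm4735, 21.1) were the other copies above 20 FPKM there.

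The lower end of the pathway parted by genotype. Pgam1, phosphoglycerate mutase, rose in WT from 84.0 and 76.7 to 206 and 222 FPKM (1.40, SE 0.10, adjusted p = 2.97e-05) and in STAT3-KO from 78.2 and 81.9 to 273 and 302 (1.83, SE 0.10, adjusted p = 4.54e-06). Eno1, the next enzyme, rose in WT from 192 and 185 to 336 and 345 FPKM (0.85, SE 0.09, adjusted p = 0.000205). In STAT3-KO cells Eno1 was at 187 and 174 FPKM in control and 189 and 177 with IL-33 (0.02, SE 0.09, adjusted p = 0.851), so its 2 groups overlapped. Pkm, pyruvate kinase, rose in WT from 313 and 331.7 to 705 and 776 FPKM (1.20, SE 0.09, adjusted p = 3.14e-05) and in STAT3-KO from 298 and 294 to 387 and 399 (0.41, SE 0.09, adjusted p = 0.00483). Under IL-33 the mutase was thus higher in STAT3-KO cells, and the 2 enzymes after it were lower. For Pgam1 the difference between the 2 responses did not pass (0.43, adjusted p = 0.0762).

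Among the glycolysis members, 2 genes of lactate export and formation differed most between STAT3-KO and WT cells with IL-33, Slc16a3 (-1.66) and Ldhb (1.31). In the difference between the 2 responses, the lowest was Slc16a3 (-1.21) and the highest was Pfkm (1.05). Ldha, the lactate dehydrogenase subunit induced in glycolytic cells, was at 491 and 429.7 FPKM in WT control, 409.9 and 416 in STAT3-KO control, 1694 and 1585 in WT IL-33 and 771 and 871 in STAT3-KO IL-33. The rise was 1.83 (SE 0.10, adjusted p = 8.25e-06) in WT and 0.99 (SE 0.10, adjusted p = 0.000111) in STAT3-KO. Ldhb, the subunit of oxidative tissues, was at 13.9 and 14.6 FPKM in WT control, 20.8 and 20.2 in STAT3-KO control, 28.3 and 33.5 in WT IL-33 and 83.2 and 72.9 in STAT3-KO IL-33. Its rise was 1.06 (SE 0.13, adjusted p = 0.000461) in WT and 1.87 (SE 0.13, adjusted p = 1.35e-05) in STAT3-KO. Ldhb made up 3.03% of the pair's FPKM in WT control, 4.74% in STAT3-KO control, 1.86% in WT IL-33 and 8.73% in STAT3-KO IL-33. Slc16a3 (MCT4), the lactate exporter of glycolytic cells, was at 31.1 and 25.1 FPKM in WT control, 20.04 and 20.2 in STAT3-KO control, 117 and 141 in WT IL-33 and 38.5 and 41.4 in STAT3-KO IL-33. It rose by 2.16 (SE 0.14, adjusted p = 1.8e-05) in WT, the largest difference among the 22, and by 0.96 (SE 0.14, adjusted p = 0.000747) in STAT3-KO. Slc16a1 (MCT1), which carries lactate in either direction, rose in both, by 0.99 (SE 0.23, adjusted p = 0.0109) and 0.86 (SE 0.23, adjusted p = 0.0139).

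**Figure D2:**
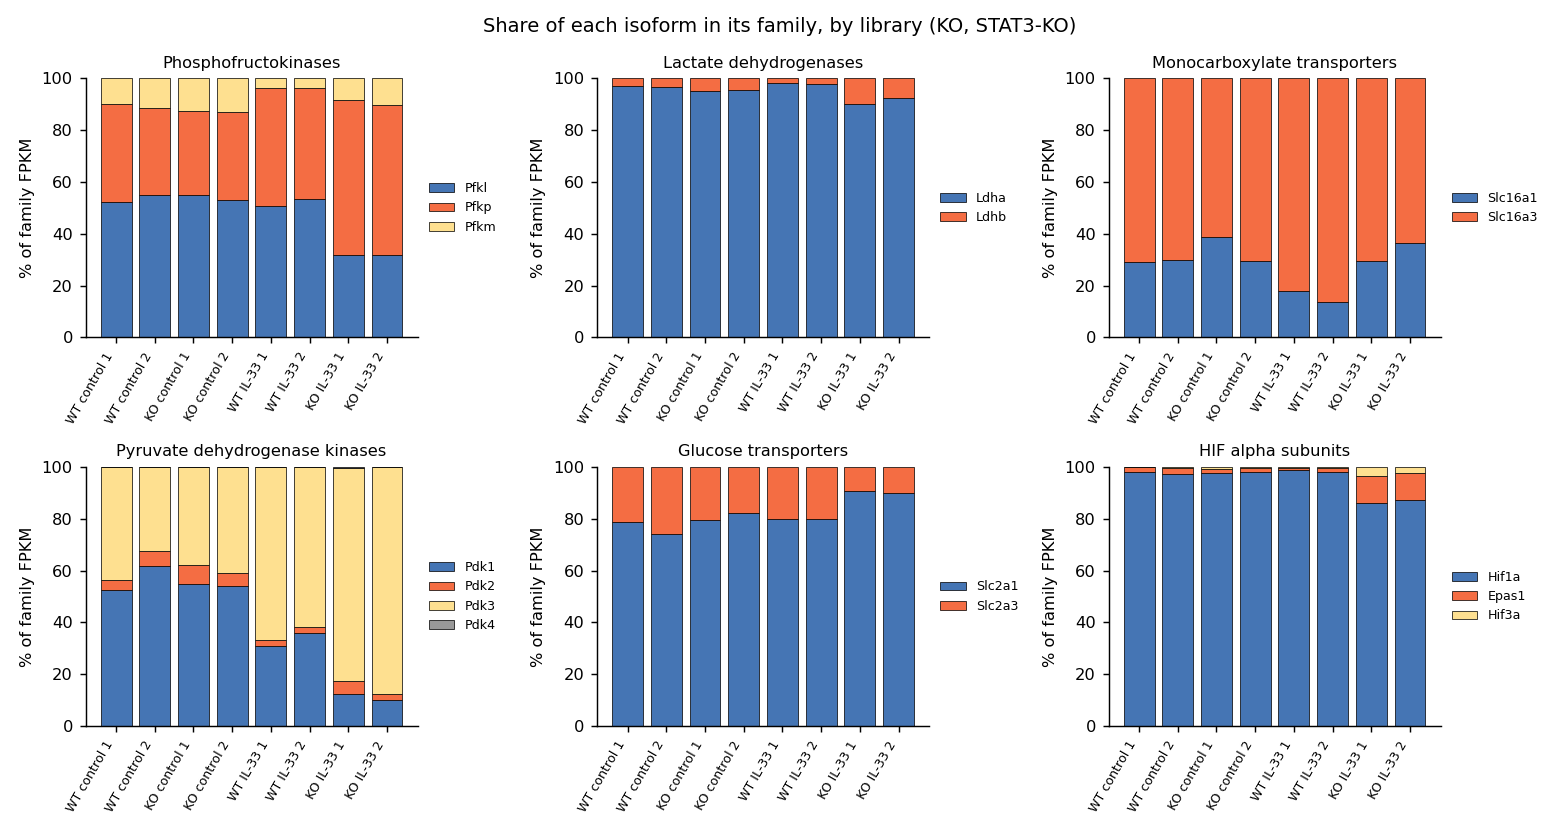
Share (%) of each isoform in the summed FPKM of its family, stacked for each of the 8 libraries. Ldhb, Pfkp and Pdk3 take their largest shares in the 2 STAT3-KO IL-33 libraries, where Pdk3 holds 82.3% and 87.5% of the pyruvate dehydrogenase kinases.

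In STAT3-KO cells 14 of the 22 glycolysis members rose with IL-33 and 3 fell (Hk1, Pfkfb3 and Slc2a3), with a median difference of 0.40. Of all genes 51% were called, 20.4% higher and 30.6% lower, with a median of -0.18. Under median-of-ratios rescaling that median was 0 and the calls were 3160 higher and 2745 lower, against 2425 and 3638; 15 members rose and 3 fell. The 12 members that rose in both genotypes were Aldoa, Aldoc, Gapdh, Ldha, Ldhb, Pfkp, Pgam1, Pgk1, Pkm, Slc16a1, Slc16a3 and Tpi1. Gpi1, the isomerase after hexokinase, rose in STAT3-KO cells (77.6 and 79.9 to 99.3 and 109 FPKM; 0.40, SE 0.10, adjusted p = 0.00911, against 0.14, adjusted p = 0.284 in WT, where rescaling gave 0.31 and an adjusted p of 0.0446), and the responses did not differ by their own test (0.26, adjusted p = 0.229). Taken as 1 pool, 16 glycolytic enzymes held 0.515% and 0.513% of all FPKM in WT control and 0.485% and 0.482% in STAT3-KO control. Gapdh entered the pool by its own row alone, without the near-identical copies described above, which held far more FPKM. The pool reached 1.28% and 1.26% in WT IL-33 and 0.746% and 0.835% in STAT3-KO IL-33. Mitochondrially encoded genes took 3.33% and 2.31% of FPKM in WT IL-33 and 5.55% to 7.13% in the other 6 libraries. Without them the pool was 1.32% and 1.29% in WT IL-33 and 0.794% and 0.891% in STAT3-KO IL-33.

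The HIF members moved in both directions. With IL-33, 5 of the 15 tested rose and 3 fell in WT (median 0.43), where 14.5% of all genes were called higher and 21.6% lower. In STAT3-KO cells 4 rose and 7 fell (median -0.38), where the shares of all genes were 20.4% and 30.6%; without P4ha2 and Egln3, 3 of 13 rose and 7 fell. Bnip3, Ddit4 and P4ha1 rose in both genotypes, and Bnip3l, Egln1 and Pdk1 fell in both. Hif1a and Ero1l rose in WT and fell in STAT3-KO cells. P4ha2 rose, and Kdm3a and Ndrg1 fell, as calls in STAT3-KO cells alone, and Ankrd37, Egln3, Higd1a and Mxi1 were called in neither.

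**Figure D3:**
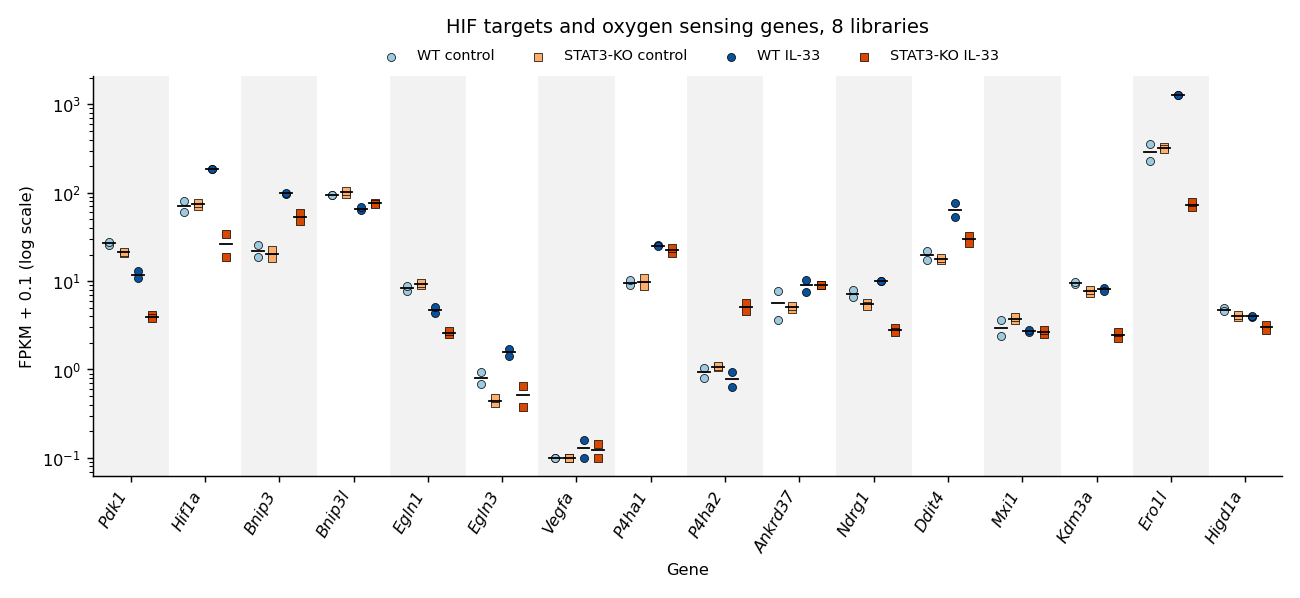
FPKM + 0.1 on a log axis for the 16 HIF members. Points are the 8 libraries by group and bars are group means (n = 2). In STAT3-KO IL-33 Hif1a and Ero1l lie below every other library, and P4ha2 lies above every other library.

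Hif1a (ENSMUSG00000021109, chr12:73901375-73947530 on GRCm38) encodes the oxygen-regulated subunit itself. It was at 60.3 and 81.6 FPKM in WT control, 71.2 and 76.0 in STAT3-KO control, 184 and 183 in WT IL-33 and 18.6 and 33.8 in STAT3-KO IL-33. The 2 control groups overlapped, WT IL-33 stood above them and STAT3-KO IL-33 stood below them. The IL-33 difference was 1.38 (SE 0.24, adjusted p = 0.00327) in WT and -1.51 (SE 0.24, adjusted p = 0.00129) in STAT3-KO. Hif1a held 97.9% of the FPKM of the 3 alpha subunits in both control groups and 98.4% in WT IL-33. In STAT3-KO IL-33 it held 86.7%, with Epas1 (HIF-2 alpha) at 10.4%; Epas1 itself was at 2.26 and 4.03 FPKM there and 1.92 and 3.48 in WT IL-33.

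Ero1l (ENSMUSG00000021831, chr14:45283092-45318572), the oxidase that drives disulfide formation in the endoplasmic reticulum, was the most abundant HIF member in 3 of the 4 groups. It was at 228 and 354 FPKM in WT control, 327 and 314 in STAT3-KO control, 1289 and 1263 in WT IL-33 and 68.2 and 77.7 in STAT3-KO IL-33. The rise in WT was 2.16 (SE 0.18, adjusted p = 6.27e-05) and the fall in STAT3-KO cells was -2.12 (SE 0.18, adjusted p = 4.2e-05). Its mean with IL-33 was 1276 FPKM in WT and 73.0 in STAT3-KO cells, a ratio of 0.057.

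**Figure D4:**
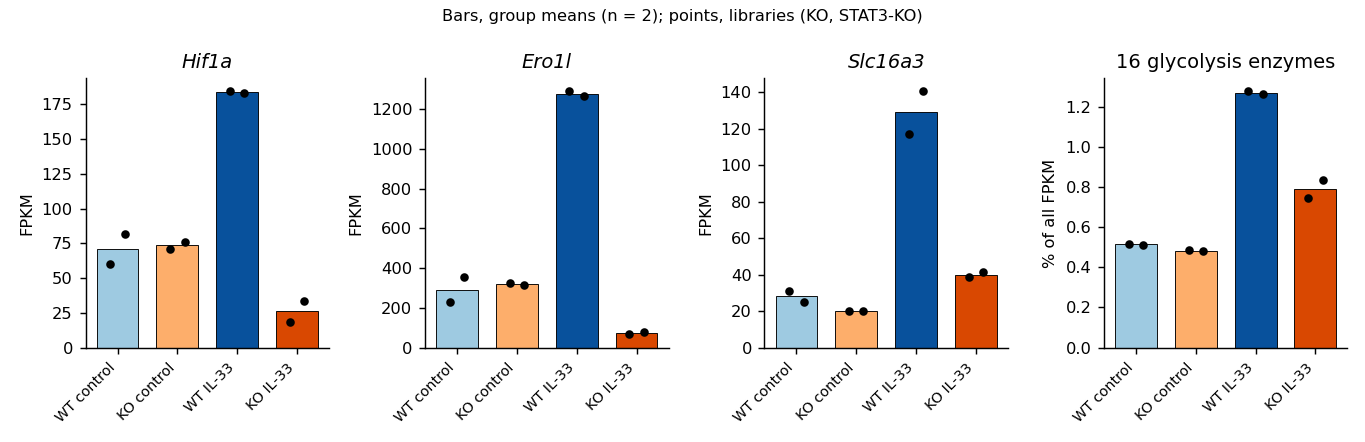
Bars are group means and points the 2 libraries of each group, in FPKM for Hif1a, Ero1l and Slc16a3 and in % of all FPKM for the 16 glycolytic enzymes. Hif1a and Ero1l fall below control in STAT3-KO IL-33, while the enzyme pool, at 0.746% and 0.835%, stays above its controls.

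Pdk1, pyruvate dehydrogenase kinase 1, was at 25.8 and 27.5 FPKM in WT control, 20.9 and 21.1 in STAT3-KO control, 10.7 and 12.8 in WT IL-33 and 4.05 and 3.68 in STAT3-KO IL-33. It fell in both, by 1.12 (SE 0.14, adjusted p = 0.000527) in WT and fell by 2.18 (SE 0.14, adjusted p = 9.37e-06) in STAT3-KO, against the direction of the glycolytic enzymes. Pdk3, which does the same reaction, was at 23.0 and 22.0 FPKM in WT IL-33 and 27.0 and 32.3 in STAT3-KO IL-33. Its share of the family went from 37.9% in WT control to 64.1% in WT IL-33, and from 39.4% to 84.9% in STAT3-KO cells. Pdk1 fell in both, so a larger share does not by itself show a rise of Pdk3.

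The oxygen sensors Egln1 and Egln3 were low. Egln1 (PHD2) was at 7.73 and 8.61 FPKM in WT control, 8.97 and 9.42 in STAT3-KO control, 4.22 and 4.97 in WT IL-33 and 2.39 and 2.63 in STAT3-KO IL-33, and fell in both (-0.71, SE 0.16, adjusted p = 0.00964; -1.54, SE 0.16, adjusted p = 0.000127). Egln3 (PHD3), a feedback target of HIF, was at 0.582 and 0.83 FPKM in WT control, 0.313 and 0.375 in STAT3-KO control, 1.60 and 1.34 in WT IL-33 and 0.276 and 0.55 in STAT3-KO IL-33. Its WT difference of 0.54 (SE 0.22) did not pass (adjusted p = 0.0875), also with no filter (SE 0.18, adjusted p = 0.0992). The difference of 0.07 in STAT3-KO cells did not pass either (adjusted p = 0.822). Egln2 (PHD1) carried most of the family's FPKM: 77.1% in WT control, 77.9% in STAT3-KO control, 78.0% in WT IL-33 and 86.8% in STAT3-KO IL-33. These are shares of a family in which Egln1 fell, so they do not show a rise of Egln2 itself.

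Among the classical targets, Bnip3, a mitophagy receptor, was at 18.7 and 25.4 FPKM in WT control, 18.4 and 22.3 in STAT3-KO control, 96.5 and 99.7 in WT IL-33 and 48.4 and 58.4 in STAT3-KO IL-33. It rose by 2.12 (SE 0.17, adjusted p = 5.09e-05) in WT and 1.35 (SE 0.17, adjusted p = 0.00034) in STAT3-KO. Its relative Bnip3l fell slightly, from 93.8 and 94.8 to 63.6 and 68.6 FPKM in WT (-0.51, SE 0.10, adjusted p = 0.00447) and from 96.9 and 105 to 77.4 and 74.3 in STAT3-KO (-0.41, SE 0.10, adjusted p = 0.00832), a call lost under median-of-ratios rescaling (adjusted p = 0.151). Ddit4 (REDD1), an inhibitor of mTORC1, rose in WT from 17.2 and 21.8 to 52.4 and 76.5 FPKM (1.66, SE 0.20, adjusted p = 0.000433) and in STAT3-KO from 17.1 and 18.1 to 32.5 and 26.6 (0.71, SE 0.20, adjusted p = 0.0164). The 2 catalytic subunits of collagen prolyl 4-hydroxylase behaved differently. P4ha1 rose in both, from 8.94 and 10.1 to 25.4 and 24.6 FPKM in WT (1.31, SE 0.15, adjusted p = 0.000334) and from 8.69 and 10.7 to 20.8 and 23.8 in STAT3-KO (1.13, SE 0.15, adjusted p = 0.000436). P4ha2 was at 0.532 to 0.989 FPKM in 6 libraries and at 5.58 and 4.46 in STAT3-KO IL-33, the group through which alone it passed the filter. With no filter its rise there was 1.60 (SE 0.21, adjusted p = 0.00332).

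Kdm3a, a histone H3K9 demethylase, was at 9.30 and 9.78 FPKM in WT control, 7.31 and 7.75 in STAT3-KO control, 8.20 and 7.72 in WT IL-33 and 2.20 and 2.53 in STAT3-KO IL-33. It fell in STAT3-KO cells (-1.34, SE 0.15, adjusted p = 0.000191), and the WT difference of -0.23 did not pass (adjusted p = 0.252). Ndrg1, a stress-induced gene, was at 6.43 and 7.82 FPKM in WT control, 5.60 and 5.15 in STAT3-KO control, 9.97 and 9.80 in WT IL-33 and 2.83 and 2.58 in STAT3-KO IL-33. It fell in STAT3-KO cells (-0.78, SE 0.16, adjusted p = 0.00427), and the WT difference of 0.43 did not pass (adjusted p = 0.0687), though it did under rescaling (0.58, adjusted p = 0.0206). Ankrd37, Higd1a and Mxi1 lay between 2.27 and 10.2 FPKM and were called in no comparison, apart from Ankrd37 with IL-33 in STAT3-KO cells under rescaling (0.93, adjusted p = 0.0294).

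Some of these calls depended on single libraries, beside that of Pfkfb4 described above. In WT, Slc16a1 lost its call without WT control 2 or WT IL-33 1 (adjusted p = 0.0722 at most), Egln1 without WT IL-33 1 (adjusted p = 0.0661), Hk2 without WT control 1 or either WT IL-33 library (adjusted p = 0.0689 at most), and Pfkm without any of 6 libraries (adjusted p = 0.166 at most). In STAT3-KO, Gpi1 lost it without STAT3-KO control 1 (adjusted p = 0.0582), Bnip3l without STAT3-KO control 2 (adjusted p = 0.0721), Slc16a1 without STAT3-KO control 2 or STAT3-KO IL-33 2 (difference 0.59, adjusted p = 0.0965 at most), and Pfkfb3 without STAT3-KO control 1 or STAT3-KO IL-33 1 (adjusted p = 0.154 at most). Aldoa and Ddit4 each lost it without any of 3 libraries (adjusted p = 0.0978 and 0.0947 at most), Pfkm without any of 5 (0.262 at most) and Gapdh without any of 6 (0.14 at most). Of the 25 member calls in WT and the 28 in STAT3-KO cells, 20 and 19 held under all 15 alternatives. P4ha2 was called in the 12 in which it passed the filter, which it did not without either STAT3-KO IL-33 library.

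Without IL-33 the genotypes were not separated by these genes. Of 37 members tested, 0 were called between STAT3-KO and WT control cells by limma, where 0.463% of all genes were called (30 higher and 25 lower). At an unadjusted p under 0.05 there were 4 members (Aldoc, Ldhb, Slc16a3 and Pdk1) and 1106 genes in all. The differences ran from -0.48 for Aldoc to 0.49 for Ldhb. Hif1a differed by 0.07 (SE 0.24, adjusted p = 0.983), Ldha by -0.15 (SE 0.10, adjusted p = 0.741) and Slc2a1 by 0.17 (SE 0.11, adjusted p = 0.75). The 2 libraries a group leave wide margins, and a p above the threshold does not show equal levels.

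With IL-33 the genotypes differed. Of 22 glycolysis members, 9 were lower in STAT3-KO than in WT cells (Slc2a3, Hk1, Hk2, Pfkl, Aldoa, Eno1, Pkm, Ldha and Slc16a3) and 4 higher (Pfkp, Pfkm, Pgam1 and Ldhb), with a median of -0.50. Of 15 HIF members, 9 were lower (Pdk1, Hif1a, Bnip3, Egln1, Egln3, Ndrg1, Ddit4, Kdm3a and Ero1l) and P4ha2 was higher, with a median of -0.81. Without Egln3 and P4ha2, which each passed the filter only through 1 of these 2 groups, 8 of 13 were lower and 0 higher (median -0.87). With either WT IL-33 library left out Egln3 failed the filter and was not tested, and likewise P4ha2 with either STAT3-KO IL-33 library left out. Of all genes 32.6% were called, 16.3% higher and 16.4% lower, with a median of 0.01. Apart from P4ha2, the largest differences were those of Ero1l (-4.11, SE 0.18, adjusted p = 5.4e-06), Hif1a (-2.82, SE 0.24, adjusted p = 0.000112) and Slc16a3 (-1.66, SE 0.14, adjusted p = 9.66e-05). With no filter P4ha2 differed by 1.84 (adjusted p = 0.0038) and Egln3, a gene of smaller difference, by -0.81 (adjusted p = 0.0304). For Ldhb the difference was 1.31 (SE 0.13, adjusted p = 0.000198) and for Pfkm 1.23 (SE 0.18, adjusted p = 0.0015). This comparison shares its libraries with both IL-33 responses, so it is not separate evidence. Calls lost without 1 library were those of Pfkl (WT IL-33 2, adjusted p = 0.0733), Pfkp (WT IL-33 1, 0.0522), Egln3 (STAT3-KO IL-33 1, 0.129), Pgam1 (WT IL-33 1 or STAT3-KO IL-33 2, 0.081 at most), Egln1 (WT IL-33 2 or STAT3-KO IL-33 1, 0.0916 at most) and Hk2 (STAT3-KO IL-33 1 or any 1 of the WT libraries with IL-33, 0.0965 at most).

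Whether the response to IL-33 itself differed between genotypes was tested as the difference between the 2 responses. Of 22 glycolysis members, 7 had a lower response in STAT3-KO cells and 3 a higher one (median -0.38). Of 15 HIF members, 6 had a lower response (median -0.77) and P4ha2 a higher one; without P4ha2 and Egln3 the median of the other 13 was -0.83. Of all genes 15.1% were called, 6.72% higher and 8.43% lower, with a median of -0.02. Ero1l (-4.28, SE 0.25, adjusted p = 8.23e-05) and Hif1a (-2.89, SE 0.35, adjusted p = 0.00196) differed most. P4ha2 differed by 1.72 (SE 0.30), with an adjusted p of 0.0318 when no filter was used. Ldha (-0.85, SE 0.14, adjusted p = 0.00749), Pkm (-0.79, SE 0.12, adjusted p = 0.0054) and Eno1 (-0.83, SE 0.12, adjusted p = 0.00484) had a lower response, and Pgk1 (-0.12, SE 0.15, adjusted p = 0.611) and P4ha1 (-0.18, SE 0.21, adjusted p = 0.598) were not called. Bnip3 (-0.77, SE 0.24, adjusted p = 0.062) and Ddit4 (-0.95, SE 0.28, adjusted p = 0.0542) missed the threshold. Of the 17 calls 10 held under all 14 alternatives, and P4ha2 held in the 11 in which it passed the filter. Kdm3a lost its call without STAT3-KO control 2 (adjusted p = 0.0529), and Ldhb (any of 4 libraries, 0.0709 at most), Pfkp (any of 5, 0.0807), Pfkm (any of 6, 0.0889), Hk2 (any of 7, 0.127) and Egln1 (any of 7, 0.138) lost theirs without single libraries.

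**Figure D5:**
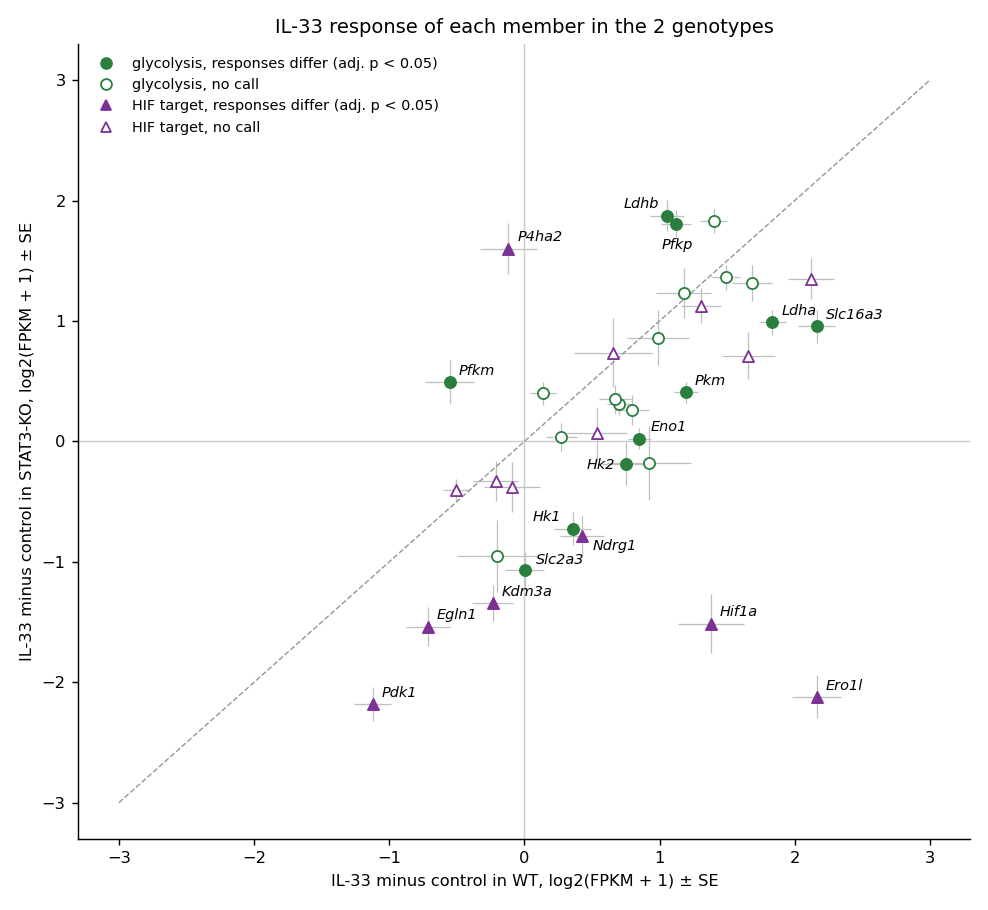
Difference between IL-33 and control on the log2(FPKM + 1) scale in WT (x axis) and STAT3-KO cells (y axis) with SE for the 37 members tested. Filled symbols differ between the genotypes at an adjusted p under 0.05; Ero1l and Hif1a lie farthest below the line of equal response, at 2.16 and 1.38 in WT and -2.12 and -1.51 in STAT3-KO.

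The wider pathway shows where these members sit. Of 19 other glycolysis genes tested, 6 rose and 3 fell in WT and 8 rose and 3 fell in STAT3-KO cells, beside 36.1% and 51% of all genes called in either direction. Slc2a6, a lysosomal glucose carrier of inflammatory cells, rose from a mean of 3.93 to 11.5 FPKM in WT and from 6.36 to 43.5 in STAT3-KO cells, and the responses differed (1.25, SE 0.20, adjusted p = 0.00686). Bsg (basigin), the chaperone of Slc16a1 and Slc16a3, rose from 199.9 to 517 FPKM in WT and from 201 to 665 in STAT3-KO cells. Bpgm, bisphosphoglycerate mutase, fell from 40.3 to 14.1 and from 31.2 to 9.98 FPKM. The pentose phosphate branch (10 tested) had 1 higher and 1 lower in WT and 5 higher and 1 lower in STAT3-KO cells. Of 12 genes of pyruvate entry into mitochondria, 1 rose and 3 fell in WT, and 5 rose and 2 fell in STAT3-KO cells. Pdhb, a subunit of pyruvate dehydrogenase, rose only as a call in STAT3-KO cells, from 53.2 to 90.3 FPKM, and the responses differed (0.77, SE 0.14, adjusted p = 0.0105).

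Of 14 further oxygen sensing genes and HIF subunits, 2 rose and 6 fell in each genotype, beside 36.1% (WT) and 51% (STAT3-KO) of all genes called. Cited2, which competes with Hif1a for the coactivators Crebbp and Ep300, rose in WT from 9.05 to 24.5 FPKM and fell in STAT3-KO cells from 11.8 to 5.64, as Hif1a did, and the responses differed (-2.30, SE 0.25, adjusted p = 0.00138). Arnt, the partner of Hif1a, fell in STAT3-KO cells from 11.2 to 4.28 FPKM (-1.22, SE 0.21, adjusted p = 0.00187). Of 26 other HIF targets, 11 rose and 5 fell in WT and 13 rose and 6 fell in STAT3-KO cells, and their median difference between the responses was 0.13, against -0.77 for the 15 HIF members. Plin2, a lipid droplet coat gene, rose in both, from 106 to 313 and from 105 to 196 FPKM, and Hmox1, heme oxygenase 1, from 10.53 to 29.9 and from 6.88 to 27.7.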

How the data were processed

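The authors deposited 1 table of FPKM values for 22075 genes and 8 libraries of mouse lung ILC2s (2 per group, 4 groups). Per the submitters' processing notes, Bowtie2, RSEM and the build GRCm38 were used, with no version given; other steps are not given in the sources used here. The deposited FPKM values keep the steps of whole reads: with exon lengths of GENCODE M21, 93.5% to 94.6% of values of up to 100 reads lay within 0.02 of a whole read, which gave the depths. RSEM can give fractional reads, so how reads were counted is uncertain, which bears on members with near-identical copies. The tests used the FPKM values.

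Analysis used limma 3.58.1 in R 4.3.3 (lmFit, contrasts, eBayes with trend) on log2(FPKM + 1) over all 4 groups, with a filter of 1 FPKM in 2 libraries, 11877 genes and a residual of 4 degrees of freedom. The 5 contrasts were IL-33 in each genotype, genotype in each condition and the difference between the responses, with Benjamini-Hochberg adjustment. Near-identical transcripts were found with BLASTN (BLAST+ 2.17.0), and promoter letters with Python 3.11.15. Replicate libraries correlated at 0.971 to 0.983.

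The members and lists were chosen with earlier results of these data known. Named in every library's values were members called in the difference between the responses, the 5 called members of each set with the largest difference in every other comparison, and 11 genes always (Slc2a1, Slc2a3, Hk2, Pfkfb3, Ldha, Pdk1, Hif1a, Bnip3, Egln3, Vegfa and Stat3). Of the further lists, up to 4 called genes could be named. Other members named with values (Pfkl, Pfkfb4, Gpi1, Aldoa, Gapdh, Bnip3l) were chosen after their values were seen. 1 marker list is not reported here. Alternatives were the pseudocount, the filter, the scaling, the variance trend, a replicate block, fewer groups and leaving out each library.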

Additional observations from a re-analysis of the deposited data

Results flagged for a closer look

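The response to IL-33 differed between STAT3-KO and WT cells, by limma's test of the difference between the 2 responses on the log2(FPKM + 1) scale, for 17 members, and each is given because its test passed. Among the carriers and first kinases, the STAT3-KO response was lower for Slc2a3 (-1.07, adjusted p = 0.0118), Hk1 (-1.08, adjusted p = 0.00947) and Hk2 (-0.94, adjusted p = 0.04). Among the phosphofructokinases it was higher for Pfkp (0.69, adjusted p = 0.0214) and Pfkm (1.05, adjusted p = 0.0295). At the end of the pathway it was lower for Eno1 (-0.83, adjusted p = 0.00484), Pkm (-0.79, adjusted p = 0.0054), Ldha (-0.85, adjusted p = 0.00749) and Slc16a3 (-1.21, adjusted p = 0.00678), and higher for Ldhb (0.82, adjusted p = 0.0197).

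Of the HIF members, the STAT3-KO response was lower for Pdk1 (-1.06, adjusted p = 0.0107), Hif1a (-2.89, adjusted p = 0.00196), Egln1 (-0.83, adjusted p = 0.0439), Ndrg1 (-1.21, adjusted p = 0.0114), Kdm3a (-1.11, adjusted p = 0.0122) and Ero1l (-4.28, adjusted p = 8.23e-05). It was higher for P4ha2 (1.72, adjusted p = 0.00832), which entered the test only through the STAT3-KO IL-33 libraries, where it is high; with no filter its adjusted p was 0.0318. Among these 17, Hif1a and Ero1l were the ones called higher in WT and lower in STAT3-KO cells, and Pfkm the one called lower in WT and higher in STAT3-KO cells. Both Pfkm calls were close to the threshold. Of the 7 alternatives other than leaving out a library, they held in 4 in WT and in 3 in STAT3-KO cells. The STAT3-KO call was lost with a pseudocount of 0.1, no filter, no variance trend and only the 2 groups compared. Over all genes 15.1% were called in this comparison.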

How the results depend on the processing

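The 2 libraries per group and the residual of 4 degrees of freedom are the main limit. Where a library left out leaves a group with 1, that library is assumed to vary like the others. Of the 93 member calls, 65 held under every alternative, the 3 of P4ha2 held in those in which it passed the filter, and no called member changed sign where tested. In WT the 1 glycolysis member called lower was 0 without the filter, with median-of-ratios rescaling and with only the 2 groups compared. Between the control groups, only the 2 groups compared gave 4 genes higher and 3 lower, pseudocount 0.1 gave 13 lower, and the replicate block gave 16 lower, against 30 and 25. With the filter at 5 FPKM P4ha2 was not tested, so the HIF members called higher were 0 between genotypes with IL-33 and 0 in the difference between responses; there, no filter gave 611 genes lower, against 1001. The causes were not tested.

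Leaving out 1 library gave these ranges. In WT, 0 to 1 glycolysis members were lower, and 1014 to 1768 genes higher and 1514 to 2576 lower. In STAT3-KO, 2 to 5 HIF members were higher. Between control groups 0 to 26 genes were higher and 1 to 17 lower. Between genotypes with IL-33, 2 to 4 glycolysis and 0 to 1 HIF members were higher, and 1077 to 2040 genes higher and 1064 to 2045 lower. In the difference between responses, 0 to 2 glycolysis and 0 to 1 HIF members were higher, and 400 to 900 genes higher and 435 to 1148 lower. Small differences with no call changed sign: in WT Pfkfb3 (-0.55 to 0.14) and Slc2a3 (-0.0749 to 0.0802), in STAT3-KO Slc2a1 (-0.061 to 0.13), Eno1 (-0.031 to 0.076) and Egln3 (-0.074 to 0.21), between controls Pfkfb3 (-0.25 to 0.43), Bnip3 (-0.31 to 0.11) and Hif1a (-0.15 to 0.28), and between genotypes with IL-33 Slc2a1 (-0.16 to 0.028).

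Same-numbered libraries showed no clear shared shift across genes: their deviations from the group means correlated at -0.06 to 0.04. Whether they shared a mouse, culture or batch cannot be told from these values. With the replicate block the response of Bnip3 differed between genotypes (-0.77, adjusted p = 0.0258), and no member lost a call.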

Other observations

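Of 12 genes of the Myc and Mondo network tested, 4 rose and 3 fell with IL-33 in WT cells and 4 rose and 5 fell in STAT3-KO cells, beside 36.1% and 51% of all genes called. Myc, which activates many glycolysis genes, rose in both, from a mean of 90.8 to 149.7 FPKM in WT and from 86.4 to 221 in STAT3-KO cells, and the responses differed (0.63, SE 0.14, adjusted p = 0.0197). Mxd1, an antagonist of Myc, rose in WT from 6.22 to 79.3 FPKM, while in STAT3-KO cells it was at 7.59 and 6.65 FPKM in control and 7.02 and 7.44 with IL-33; the responses differed by -3.46 (SE 0.21, adjusted p = 8.23e-05). Max, the shared partner of Myc and Mxd1, fell in WT from 13.7 to 3.56 FPKM and was at 23.6 in STAT3-KO IL-33. Txnip, which restrains glucose uptake, fell in both, from 274 to 85.7 and from 324 to 128 FPKM.

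Of 11 mTORC1 inhibitors and nutrient sensors tested, 2 rose and 1 fell in WT, and 2 rose and 4 fell in STAT3-KO cells, beside the same shares of all genes. Sesn2, a leucine sensor, rose in both, from 22.7 to 59.1 FPKM in WT and from 37.7 to 111 in STAT3-KO cells. Sesn1 fell in WT from 66.2 to 49.8 FPKM and rose in STAT3-KO cells from 91.8 to 289, and the responses differed (2.04, SE 0.16, adjusted p = 0.00032). These lists were chosen with earlier results known, and no explanation of their values was tested.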
